A study of Mus musculus with 30 samples.

Results

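The genes described here are 8 regulators of mRNA decay, found by their gene symbols among the 56941 genes of the count files of mHypoA-2/12 cells treated with cannabidiol (CBD): Zfp36, Zfp36l1, Zfp36l2, Btg1, Btg2, Btg3, Tob1 and Tob2. mHypoA-2/12 (Clu177) is a line of adult mouse hypothalamic cells immortalized with the SV40 large T antigen, and CBD is a non-psychotomimetic compound of hemp. Cells received vehicle (DMSO) or CBD at 0.325, 0.75, 1.5 or 3 µM for 6 h or 24 h, with 3 libraries in each of the 10 groups, and 3′ mRNA tags were sequenced. All groups were of this 1 immortalized line and all received DMSO, so the values describe the line and not hypothalamic tissue. The labels do not say whether the 3 libraries of a group came from separate cultures, so the p-values measure the spread between these libraries, which may be technical.

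ZFP36 proteins bind AU-rich elements, short runs of A and U in the 3′ untranslated region (UTR) of many cytokine and early-response mRNAs, and recruit the CCR4-NOT complex, which removes the poly(A) tail and so starts the decay of the mRNA. Zfp36 (tristetraprolin) is the inducible member, is itself an early-response gene, and its own mRNA carries such an element. BTG and TOB proteins share an N-terminal domain that binds the CNOT7 and CNOT8 deadenylases of the same complex, slow the cell cycle in many cell types, and TOB proteins also bind the poly(A)-binding protein PABPC1. Btg2 is in addition a well-known target of p53.

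The AU-rich elements of the members are shown because they divide the families. In the GENCODE M21 annotation of GRCm38, the nonamer TTATTTATT occurred once in the 3′ UTR of each of the 3 Zfp36 genes and in none of the 5 Btg and Tob genes, against 7.6% of 20973 genes with a 3′ UTR. The shorter TATTTAT, which lies within the nonamer and was present in 27.5% of the genes, occurred, among the Btg and Tob genes, in Btg2, Btg3 and Tob2 and not in Btg1 or Tob1. These letters were chosen after the values of the members were known. Sites are shown for the 5 of these genes that were tested, which leaves out Btg3. Each is given from the mRNA strand, the minus strand for these 5 genes, with the matched letters in capitals, at chr7:28376951-28376979 for Zfp36, chr12:80108167-80108195 for Zfp36l1, chr17:84184914-84184942 for Zfp36l2, chr1:134077250-134077276 for Btg2 and chr15:81849861-81849887 for Tob2.
Zfp36: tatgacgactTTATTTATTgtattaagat
Zfp36l1: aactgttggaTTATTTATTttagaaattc
Zfp36l2: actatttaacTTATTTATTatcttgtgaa
Btg2: aatgaagagcTATTTATacatgttttt
Tob2: atcacctgctTATTTATgtacgaggtt

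The promoters of Zfp36, Btg2 and Tob2 are shown since the comparisons below turn on these genes, and since Zfp36 and Btg2 are known as inducible genes. Each runs from 250 bases before to 50 bases after the RefSeq start (GRCm38.p6), on the minus strand, at chr7:28379179-28379478 for Zfp36, chr1:134079106-134079405 for Btg2 and chr15:81858277-81858576 for Tob2. Capitals mark a match to a CArG box (the serum response element core) in Zfp36 and to the cyclic AMP response element TGACGTCA in Btg2.
Zfp36: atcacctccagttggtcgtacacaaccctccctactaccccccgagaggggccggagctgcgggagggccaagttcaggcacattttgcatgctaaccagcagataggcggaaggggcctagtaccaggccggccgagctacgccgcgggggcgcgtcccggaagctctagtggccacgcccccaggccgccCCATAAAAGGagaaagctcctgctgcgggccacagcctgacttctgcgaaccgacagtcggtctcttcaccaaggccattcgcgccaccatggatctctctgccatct
Btg2: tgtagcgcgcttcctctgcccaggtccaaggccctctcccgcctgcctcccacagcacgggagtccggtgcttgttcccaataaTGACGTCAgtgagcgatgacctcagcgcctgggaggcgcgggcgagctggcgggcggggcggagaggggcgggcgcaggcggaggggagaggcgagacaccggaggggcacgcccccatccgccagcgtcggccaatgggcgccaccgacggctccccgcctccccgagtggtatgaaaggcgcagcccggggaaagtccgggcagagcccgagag
Tob2: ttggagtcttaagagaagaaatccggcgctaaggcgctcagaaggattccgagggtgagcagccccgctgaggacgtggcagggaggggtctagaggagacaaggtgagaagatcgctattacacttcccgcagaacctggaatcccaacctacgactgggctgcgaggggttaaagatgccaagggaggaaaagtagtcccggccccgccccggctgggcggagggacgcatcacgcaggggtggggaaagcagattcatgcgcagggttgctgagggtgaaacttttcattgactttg

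RefSeq promoters were at hand for 7 of the 8 members, the exception being Zfp36l2. Both strands were searched for the CArG box, TGACGTCA and the AP-1 site TGACTCA, which were present in 1.63%, 1.79% and 5.2% of all 32851 promoters of the same length. The CArG match CCATAAAAGG in Zfp36 begins 58 bases before the start and the TGACGTCA in Btg2 166 bases before it. No other match to these 3 motifs was found in the windows of the members.

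The line was first set against markers of its labelled cell type. Of 9 neuronal genes, 5 were above 1 CPM (reads of the gene per 1e6 reads on genes) in the median library, led by Tubb3 and Eno2, and their summed level was 97.0 to 156.5 CPM. Rbfox3, Snap25, Npy and Agrp were near 0, with Npy at 1 read over all 30 libraries. The 6 mesenchymal genes, among them Col1a1, Vim and Acta2, summed to 7490 to 9763 CPM, far above the neuronal genes, so the label of neurons is borne out by part of its markers. Aqp4 and Olig2, markers of astrocytes and oligodendrocytes, had 0 reads. Between 1839621 and 4420675 reads fell on genes in each library. The third vehicle library of 6 h stood apart from the other two, with 3574833 reads against 1839621 and 1919498 and a chi-square per gene of 12.0 and 10.8 against them, where that of the other two was 2.23. Such values also occurred in other groups. The first and second libraries of 3 µM at 24 h were at 10.4, with 2518615 and 2365990 reads, and those of 0.325 µM at 6 h at 9.51. Since chi-square grows with depth, these values are not on an equal footing. In bulk libraries of this kind, fewer cells expressing a gene cannot be told apart from less RNA of it per cell.

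Depth set how finely each member could be followed. Over the 30 libraries, Zfp36l1 had 138 to 472 reads per library, Tob2 91 to 358, Btg2 53 to 181, Btg1 41 to 151, Tob1 21 to 112, Zfp36l2 15 to 86 and Zfp36 11 to 48. Btg3 had 0 to 11 reads and 93 in all, did not pass the filter on low counts, and was not tested, so 7 of the 8 members entered each test. Levels below are CPM on library totals scaled by TMM over all 30 libraries, and fold changes are from edgeR's quasi-likelihood F-test, adjusted over all genes tested, with a false discovery rate (FDR) below 0.1 as the study's threshold.

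At 6 h, Zfp36 was lower with CBD and was the 1 member of 7 to pass the test over the 4 doses together, against 0.508% of 12012 genes called lower. Without the third vehicle library Zfp36 was called as well (−1.08, FDR 0.0862), and 1.7% of genes were called lower. All 7 tested members had a negative log2 fold change, with a median of −0.30, where 53.5% of all genes were negative and the median over all genes was −0.02. At an unadjusted p below 0.05, 3 of 7 members (Zfp36, Tob1 and Tob2) were lower, against 5.39% of all genes. At 24 h, Tob2 was lower and was the 1 member called, against 0.033% of 12118 genes called lower. There 5 of 7 members were negative with a median of −0.14, where 51.4% of all genes were negative with a median of −0.006. The comparisons at a given time share the same 3 vehicle libraries, so a high or low vehicle library moves every dose together.

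**Figure D1:**
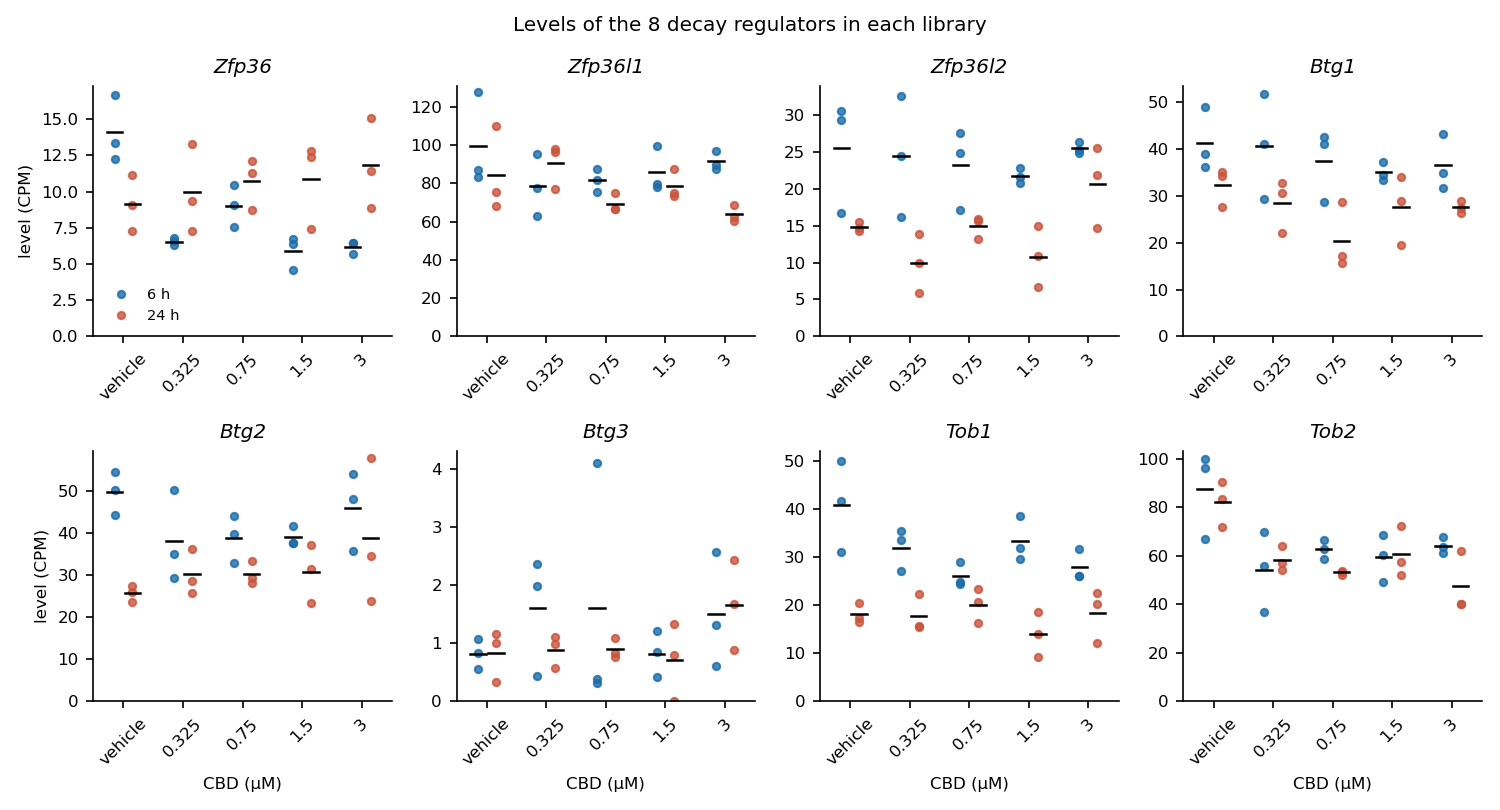
Level of each of the 8 members (CPM, vertical axis from 0) in each library by CBD dose (µM, horizontal axis) at 6 h (blue) and 24 h (red), with 3 points per group and a line at the mean. Zfp36 at 6 h lay at 12.3 to 16.7 CPM in vehicle and at 4.56 to 10.5 CPM in the CBD libraries, and the mean of Tob2 in vehicle lay above each CBD library at both times.

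The vehicle libraries of 6 h had 12.3, 13.3 and 16.7 CPM of Zfp36. With CBD for 6 h the level was 6.31, 6.56 and 6.76 CPM at 0.325 µM, 7.52, 9.07 and 10.5 CPM at 0.75 µM, 4.56, 6.40 and 6.76 CPM at 1.5 µM, and 5.67, 6.43 and 6.44 CPM at 3 µM. All 12 CBD libraries were therefore below all 3 vehicle libraries, a separation seen in 0.724% of the genes tested. The mean fell from 14.1 ± 2.30 CPM (SD, n = 3) to 6.91 ± 1.53 CPM (SD, n = 12), which is 49.0% of vehicle, and the log2 fold change over the 4 doses was −1.04 (SE 0.25, FDR 0.0608, edgeR). The call rests on few reads, 23 to 48 per vehicle library, and was lost when the first vehicle library was left out (log2 fold change −0.91, FDR 0.252), when the second was (−1.12, FDR 0.126) and without the second library of 3 µM (−1.02, FDR 0.105).

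The levels of Zfp36 at 6 h were not ordered by dose. In order of mean level the groups were 1.5 µM (5.91 CPM), 3 µM (6.18 CPM), 0.325 µM (6.54 CPM), 0.75 µM (9.01 CPM) and vehicle (14.1 CPM). The ranges of the 3 lowest groups overlapped, whereas 0.75 µM was above them and below vehicle without overlap. At the single doses the log2 fold change was −1.10 (SE 0.33) at 0.325 µM, −0.64 (SE 0.32) at 0.75 µM, −1.25 (SE 0.34) at 1.5 µM and −1.17 (SE 0.33) at 3 µM, with FDR from 0.208 to 0.650, so no single dose passed. The test for any difference among the 4 doses called 0 genes at 6 h, with 452 genes at an unadjusted p below 0.05 and no member among them, and DESeq2 also called 0 genes.

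At 24 h Zfp36 was not called. The vehicle libraries had 7.29, 9.08 and 11.1 CPM, and the 12 CBD libraries 7.28 to 15.1 CPM with a median of 11.3 CPM. The groups overlapped, with 7 CBD libraries above all vehicle libraries and 1 below them, and the log2 fold change was 0.22 (SE 0.25, FDR 0.938, edgeR). The CBD effect at 24 h was above that at 6 h by 1.27 on the log2 scale (SE 0.34, unadjusted p 0.000639), but with an FDR of 0.172 this difference between the times did not pass the test, in which 0.235% of 12790 genes were called. It passed when at least 10 counts were required in every library (FDR 0.0877). The vehicle mean was itself lower at 24 h, 9.16 ± 1.91 CPM against 14.1 ± 2.30 CPM (SD, n = 3 each), a log2 difference of −0.61 that did not pass (FDR 0.147).

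**Figure D2:**
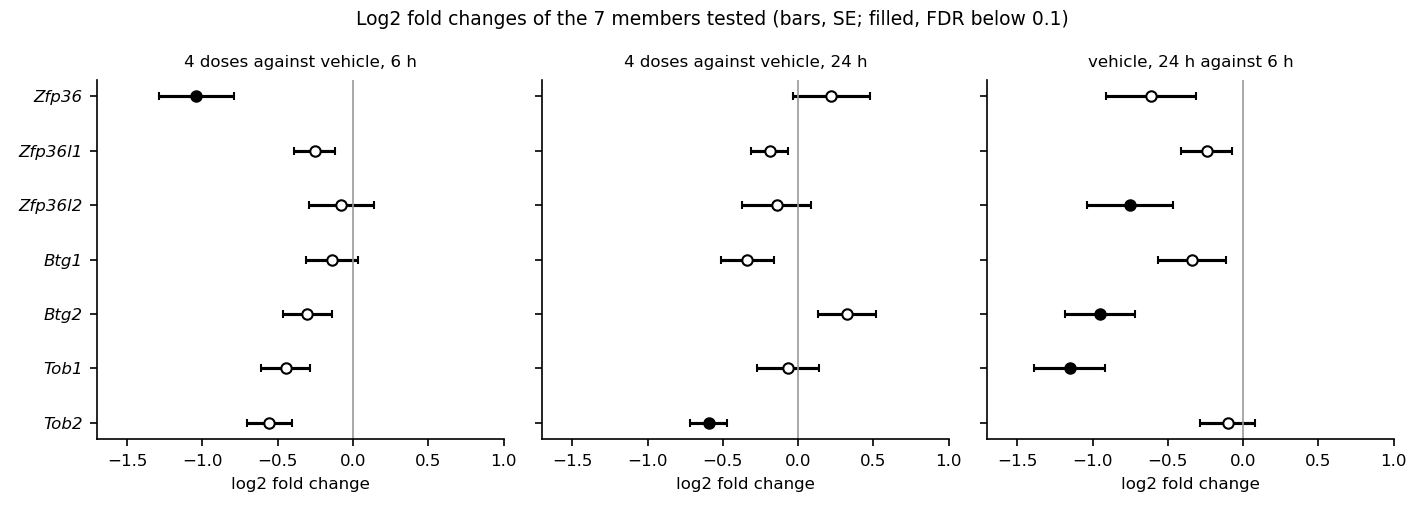
Log2 fold change (horizontal axis) of the 7 members tested, for the 4 CBD doses together against vehicle at 6 h and at 24 h and for vehicle at 24 h against 6 h, with bars for the SE and filled points for an FDR below 0.1. Zfp36 is filled at 6 h (−1.04), Tob2 at 24 h (−0.59), and Zfp36l2, Btg2 and Tob1 in the vehicle comparison.

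Zfp36l1 and Zfp36l2, the paralogs of Zfp36 that bind the same elements, did not pass the test at either time. Zfp36l1 at 6 h was at 83.4, 87.0 and 127 CPM in vehicle and at 63.1 to 99.2 CPM (median 84.5) with CBD, overlapping groups with a log2 fold change of −0.25 (SE 0.14, FDR 0.548). The third vehicle library was the high one, and without it the log2 fold change was −0.02. At 24 h Zfp36l1 was at 68.0, 75.3 and 109.9 CPM in vehicle and 60.5 to 97.8 CPM with CBD (log2 fold change −0.19, SE 0.12, FDR 0.867).

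Zfp36l2 at 6 h had 16.7, 29.3 and 30.6 CPM in vehicle and 16.2 to 32.6 CPM with CBD, with a log2 fold change of −0.08 (SE 0.21, FDR 0.946). At 24 h its vehicle libraries were close together at 14.3, 14.7 and 15.5 CPM, and the CBD libraries spread to either side of them. The level was 5.91, 9.93 and 13.8 CPM at 0.325 µM, 13.2, 15.6 and 15.9 CPM at 0.75 µM, 6.62, 10.9 and 14.9 CPM at 1.5 µM and 14.7, 21.9 and 25.5 CPM at 3 µM. The 2 lowest levels were at 0.325 and 1.5 µM and the 2 highest at 3 µM. The 4 doses together gave a log2 fold change of −0.14 (SE 0.23, FDR 0.965), which averages values below and above vehicle.

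At 24 h Zfp36l2 differed between 3 µM and the 3 lower doses. Its mean was 20.7 ± 5.49 CPM (SD, n = 3) at 3 µM and 11.9 ± 3.75 CPM (SD, n = 9) at the lower doses, with overlap, and the log2 difference of 0.85 (SE 0.24) passed at an FDR of 0.0369 (edgeR). In the same comparison 6.36% of 12118 genes were called higher, and the contrast was chosen with earlier results of these data known. The test for any difference among the doses, which called 1.93% of genes at 24 h, did not call it (FDR 0.138) or any other member. The share of reads outside genes moved with this contrast, at 21.4% ± 0.487 (SD, n = 3) for 3 µM against means of 19.4% to 19.7% for the lower doses. With that share in the model the difference was 1.23 with an FDR of 0.293, and without the first 3 µM library it was 0.65 with an FDR of 0.325, and without the third 0.79 with an FDR of 0.142.

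Among the BTG genes, Btg2 (an antiproliferative p53 target) had fold changes of opposite sign at the 2 times, and neither passed. At 6 h it was at 44.3, 50.3 and 54.5 CPM in vehicle and 29.3 to 54.1 CPM (median 38.7) with CBD, 9 of 12 libraries lying below all vehicle libraries, with a log2 fold change of −0.30 (SE 0.16, FDR 0.543). At 24 h it was at 23.6, 25.9 and 27.5 CPM in vehicle and 23.4 to 57.8 CPM (median 30.4) with CBD, 9 of 12 libraries lying above all vehicle libraries, with a log2 fold change of 0.33 (SE 0.19, FDR 0.827). The highest value, 57.8 CPM, was 1 library of 3 µM whose companions were at 23.9 and 34.6 CPM. The difference between the times was 0.63 (SE 0.26, FDR 0.638) and was not called. With the share of reads outside genes in the model, the log2 fold change at 24 h turned to −0.09.

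Btg1, the closest paralog of Btg2, had 36.1, 38.9 and 49.1 CPM in vehicle and 28.8 to 51.7 CPM with CBD at 6 h, and 27.6, 34.1 and 35.2 CPM against 15.6 to 34.0 CPM at 24 h. The groups overlapped at both times, and the log2 fold changes were −0.14 (SE 0.17, FDR 0.849) and −0.34 (SE 0.18, FDR 0.779). Its lowest levels were at 0.75 µM for 24 h, where 2 of the 3 libraries had 15.6 and 17.1 CPM (log2 fold change −0.68, SE 0.24, FDR 0.416). Btg3 stood at 0 to 4.11 CPM and its level cannot be compared between groups at this depth.

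Tob1 at 6 h had 31.1, 41.7 and 50.2 CPM in vehicle and 24.4 to 38.5 CPM (median 29.3) with CBD. Of the 12 CBD libraries, 7 were below all vehicle libraries and all 12 below the vehicle mean, and the log2 fold change was −0.45 (SE 0.16, unadjusted p 0.0112, FDR 0.294). It was not called, except when the third vehicle library, the lowest of them, was left out (−0.63, FDR 0.0862). Without the second, the highest, it was −0.27 (FDR 0.729). At 24 h Tob1 was at 16.5, 17.2 and 20.5 CPM in vehicle and 9.27 to 23.3 CPM with CBD, overlapping on both sides, with a log2 fold change of −0.07 (SE 0.20, FDR 0.985).

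Tob2, the closest relative of Tob1, had log2 fold changes of −0.56 at 6 h and −0.59 at 24 h, of which the second passed the test. At 6 h the vehicle libraries had 66.7, 96.1 and 100.1 CPM. The CBD libraries had 36.7, 55.7 and 69.9 CPM at 0.325 µM, 58.5, 62.7 and 66.5 CPM at 0.75 µM, 49.3, 60.4 and 68.4 CPM at 1.5 µM and 61.0, 63.7 and 67.7 CPM at 3 µM. The second vehicle library lay among the CBD libraries and the other two lay above all of them, so 9 of 12 CBD libraries were below all of vehicle. The mean was 60.0 ± 9.40 CPM (SD, n = 12) against 87.6 ± 18.2 CPM (SD, n = 3), or 68.5% of vehicle, and the log2 fold change (SE 0.15, unadjusted p 0.00115) did not pass at an FDR of 0.126 (edgeR). It passed in 4 of 6 alternative fits, DESeq2 among them (FDR 0.0889), and without the second vehicle library (−0.71, FDR 0.0887), but not without the first or the third (−0.46 and −0.48, FDR 0.350 and 0.200).

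At 24 h the vehicle libraries had 71.9, 83.4 and 90.6 CPM of Tob2. The CBD libraries had 54.0, 57.0 and 64.1 CPM at 0.325 µM, 52.2, 53.4 and 53.9 CPM at 0.75 µM, 51.9, 57.5 and 72.4 CPM at 1.5 µM and 39.9, 40.0 and 62.1 CPM at 3 µM. All but 1 of the 12 CBD libraries were below all vehicle libraries, the exception being 72.4 CPM at 1.5 µM. The mean was 54.9 ± 9.15 CPM (SD, n = 12) against 82.0 ± 9.39 CPM (SD, n = 3), or 66.9% of vehicle, and the log2 fold change was −0.59 (SE 0.12, FDR 0.0566, edgeR). No single dose passed in edgeR's fit of the 15 libraries, with log2 fold changes of −0.50 (SE 0.16), −0.64 (SE 0.17), −0.45 (SE 0.16) and −0.78 (SE 0.17) in order of dose and FDR from 0.186 to 0.560. The study, which used DESeq2, lists Tob2 among the altered genes of RNA degradation, a pathway shared by 0.75 and 3 µM at 24 h. Here DESeq2 called Tob2 at 3 µM (−0.78, FDR 0.0414) and not at 0.75 µM (FDR 0.102). The fit of the 6 libraries alone called it at 0.75 µM (−0.64, FDR 0.0266) and not at 3 µM (−0.79, FDR 0.844). The fit without a filter on low counts called it at 3 and 0.75 µM (FDR 0.00446 and 0.0690). None of these fits called it at 0.325 or 1.5 µM (FDR 0.323 to 0.673).

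The call of Tob2 at 24 h was lost in 7 of the 15 fits that left out 1 library, at the most without the third vehicle library (−0.51, FDR 0.584) or the first (−0.58, FDR 0.306), and in the fit of all 30 libraries (−0.59, FDR 0.188). The share of reads outside genes at 24 h was 21.4% ± 0.714 (SD, n = 3) in vehicle and lower at the 3 lower doses, and with that share in the model the log2 fold change was −0.29 (FDR 0.9998) and no gene was called. At 3 µM the share was 21.4% ± 0.487 (SD, n = 3) and the log2 fold change of Tob2 was −0.78, which did not pass (FDR 0.186).

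Since the fold changes of Tob2 were alike at both times, the 4 doses and both times were also pooled in a comparison added after the values had been seen. Tob2 had a log2 fold change of −0.57 (SE 0.10, FDR 0.0038, edgeR), against 0.203% of 12790 genes called lower. It was called in all 30 fits that left out a library (−0.65 to −0.52) and in all 5 alternatives. The comparison was chosen because of the values of Tob2 itself, so these calls describe Tob2 and are not further evidence for it. No other member passed, Zfp36 being at −0.40 (FDR 0.367) and Btg2 at 0.02 (FDR 0.984). The effects at 24 h and 6 h differed for Tob2 by −0.03 on the log2 scale with an SE of 0.21, so a difference of the size of this SE in either direction cannot be told from 0.

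**Figure D3:**
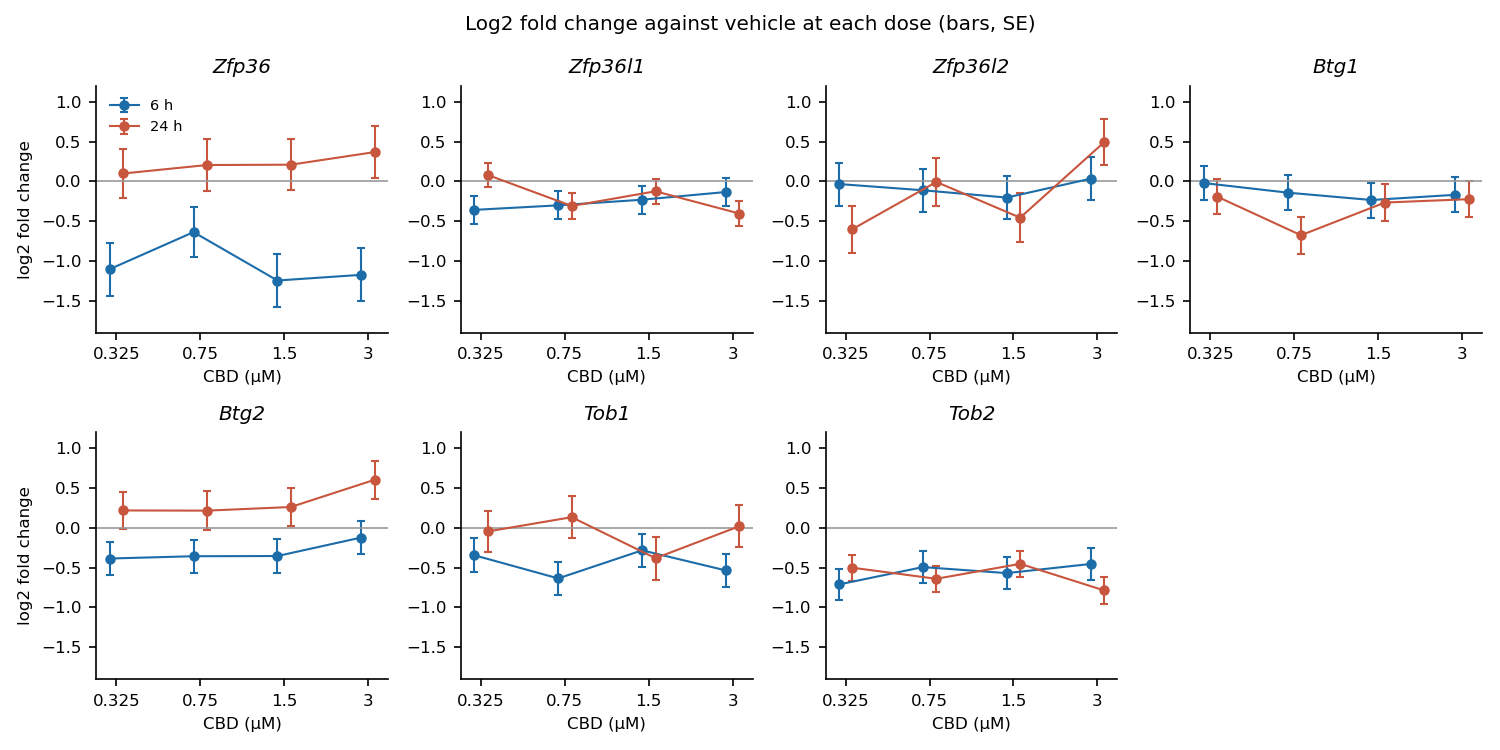
Log2 fold change against the vehicle of the same time (vertical axis) at each CBD dose (µM, horizontal axis) for the 7 members tested, at 6 h (blue) and 24 h (red), with bars for the SE. Zfp36 lies between −1.25 and −0.64 at 6 h and above 0 at 24 h, whereas Tob2 lies between −0.78 and −0.45 at both times.

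Several members differed between the harvest times in vehicle. All 7 had a negative log2 difference of 24 h against 6 h, where 51.9% of all genes were negative. Of the 7, 3 passed as lower, against 14.2% of genes called lower. Tob1 fell by 1.15 on the log2 scale (SE 0.23, FDR 0.000559), from 41.0 ± 9.55 CPM to 18.1 ± 2.13 CPM (SD, n = 3 each). Btg2 fell by 0.95 (SE 0.23, FDR 0.00318), from 49.7 ± 5.13 CPM to 25.6 ± 1.97 CPM, and Zfp36l2 fell by 0.75 (SE 0.29, FDR 0.0586), from 25.5 ± 7.71 CPM to 14.8 ± 0.625 CPM. The call of Zfp36l2 was lost without any filter on low counts (FDR 0.107) and in 5 of the 30 fits that left out a library, each of them a vehicle library. Tob2 was at −0.10 (SE 0.18, FDR 0.746), Zfp36l1 at −0.24 (FDR 0.334) and Btg1 at −0.34 (FDR 0.303).

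Across the 15 libraries of a time, members were compared with each other as a description. At 6 h, Pearson's r of log2 CPM was 0.69 between Zfp36 and Tob2 and 0.68 between Zfp36l1 and Tob2. At 24 h it was −0.69 between Btg2 and Tob2 and −0.69 between Zfp36l1 and Zfp36l2. These pairs had the largest r in absolute size at each time. The other pairs lay between −0.35 and 0.51 at 6 h and between −0.42 and 0.63 at 24 h, with Tob1 and Tob2 at 0.05 at 6 h. All pairs share libraries, doses and depth, and the values at 6 h contain the difference between vehicle and CBD in both genes. The genes most like Zfp36 over the 6 h libraries were Gm39325 (r = 0.848), Nelfb (r = 0.848), a subunit of the negative elongation factor, and Lhfpl2 (r = 0.844). Those most like Tob2 over the 24 h libraries were Olfml3 (r = 0.906), Man2a1 (r = 0.873), a mannosidase of the Golgi, and Tmem165 (r = 0.858).

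In the comparison of the 4 doses together with vehicle, no gene of the machinery that these proteins recruit was called. Of 26 genes for CCR4-NOT and PAN2-PAN3 deadenylases, poly(A)-binding proteins, decapping factors and Xrn1, 24 were tested, and 0 were called in that comparison at 6 h or at 24 h by edgeR. At 6 h, 2 were higher and 2 lower at an unadjusted p below 0.05, with log2 fold changes of −0.48 to 0.44 and a median of −0.08. At 24 h, 2 were lower and 0 higher at that p, with a median of −0.05. Few genes were called in all, 90 of 12012 at 6 h and 13 of 12118 at 24 h. An absence of calls in a list of this size is therefore near the share over all genes. At the unadjusted p below 0.05 there were 1234 genes at 6 h and 815 at 24 h. Without the third vehicle library, Tnks1bp1 was called lower (−0.80, FDR 0.0149) and Edc4, a decapping factor, higher (0.71, FDR 0.0388) at 6 h. The 5 other proteins that bind AU-rich elements (Elavl1, Hnrnpd, Khsrp, Tia1 and Tial1) and the 6 genes for kinases, phosphatase and 14-3-3 proteins that act on ZFP36 likewise had 0 calls, and 0 genes at an unadjusted p below 0.05, for the 4 doses together against vehicle at either time.

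Other contrasts did call genes of these lists, which are named here after their values were seen. For 3 µM against the 3 lower doses at 24 h, 6 of 24 machinery genes were called, 4 higher and 2 lower, where 6.36% of all genes were called higher and 4.16% lower. Pan2, the catalytic subunit of the PAN2-PAN3 deadenylase, was lower (−1.20, SE 0.27, FDR 0.0121), as was the RNA helicase gene Ddx6 (−0.38, FDR 0.0364). Pabpc1, the main cytoplasmic poly(A)-binding protein, was higher (0.43, SE 0.09, FDR 0.0113), as were Pabpc4, Cnot3 and Tnks1bp1 (FDR 0.0523, 0.0479 and 0.0999). Pan2 and Pabpc1 were also called for any difference among the doses (FDR 0.0595 and 0.0712). Hnrnpd, of the other AU-rich element binding proteins, and Ywhaz, a 14-3-3 gene, were higher at 3 µM (0.36 and 0.29, FDR 0.0715 and 0.0648). As for Zfp36l2, the share of reads outside genes moved with this contrast. In vehicle at 24 h against 6 h, 6 of 24 machinery genes were lower and 1, Cnot10, was higher. Of all 12790 genes, 14.2% were called lower and 1600 genes higher. Elavl1, Hnrnpd, Tial1, Mapkapk2 and Ywhaz were also lower (log2 differences of −0.85, −0.95, −0.67, −0.54 and −0.46).

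Of 18 mRNAs known as ZFP36-family targets, 11 were tested at 6 h, and 4 were lower and 0 higher, against 0.508% of all genes called lower. The median log2 fold change of the 11 was −0.55, where that of all genes was −0.02. Ccl2, a monocyte chemokine, was at −1.59 (SE 0.35, FDR 0.0400), Cxcl1, a neutrophil chemokine, at −1.53 (SE 0.38, FDR 0.0745) and Ier3, an early-response gene, at −0.52 (SE 0.13, FDR 0.0677). The chemokines were spread widely in vehicle, with Ccl2 at 95.5 ± 113.0 CPM and Cxcl1 at 50.5 ± 59.2 CPM (SD, n = 3 each). That spread came from the third vehicle library, in which Ccl2 reached 226 CPM. Without it Ccl2 and Cxcl1 were at 0.13 and 0.17 (FDR 0.899 and 0.897) and Ier3 at −0.69 (FDR 0.00187). Then 1 of 11 targets was called lower, against 1.7% of all genes, and their median was −0.05. Ier3 lost its call without the first vehicle library (−0.30, FDR 0.453) or the second (−0.54, FDR 0.195). Ccl2 and Cxcl1 kept theirs in both cases. Zfp36 kept its call without the third library (−1.08, FDR 0.0862) but not without the first or the second (FDR 0.252 and 0.126). At 24 h, 9 were tested and 0 were called, with a median of 0.10.

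Early-response genes, of which Zfp36 is itself known as a member, were also called lower at 6 h. Of 15 tested of 16 listed, 7 were lower and 0 higher, with a median log2 fold change of −0.62, against 0.508% of all genes called lower. Fosb was at −1.30 (SE 0.24, FDR 0.00995), Junb at −0.67 (SE 0.13, FDR 0.0161) and Dusp1, a MAP kinase phosphatase, at −0.90 (SE 0.18, FDR 0.0169). Of the 12 p53 targets, the group to which Btg2 belongs, 4 were lower and 0 higher, against the same 0.508%. The median of the 12 was −0.39, and the calls were led by Plk2 (−0.92, FDR 0.0161), the cell cycle inhibitor Cdkn1a (−0.48, FDR 0.0169) and Mdm2 (−0.57, FDR 0.0387). Without 1 vehicle library at a time, 5 to 7 early-response genes and 2 to 4 p53 targets were called lower, against 0.314% to 1.7% of all genes. Cdkn1a lost its call without the second (FDR 0.121) and Mdm2 without the third (FDR 0.280). Btg2 at −0.30 was not called beside them.

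For the 4 doses together against vehicle at 24 h, the 1 gene called in these lists was Dusp1, which was higher (0.0743% of all genes were, log2 fold change 0.86, SE 0.15, FDR 0.0173), at 80.1 ± 18.8 CPM with CBD and 43.0 ± 4.50 CPM in vehicle (SD, n = 12 and 3). It lost its call without the second or the third vehicle library (FDR 0.124 and 0.249). At 3 µM against the lower doses at 24 h, Dusp1 and Junb were lower (−0.46 and −0.64, FDR 0.0762 and 0.0237), and Fos, Ccnd1, Bax, Phlda3 and Zmat3 were higher (FDR 0.0365 to 0.0915). In vehicle, 9 of 11 targets, 10 of 15 early-response genes and 6 of 12 p53 targets were lower at 24 h than at 6 h, as were Tob1, Btg2 and Zfp36l2. In that comparison 14.2% of all genes were called lower. The lists were chosen with earlier results of these data known and are given as descriptions.

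**Figure D4:**
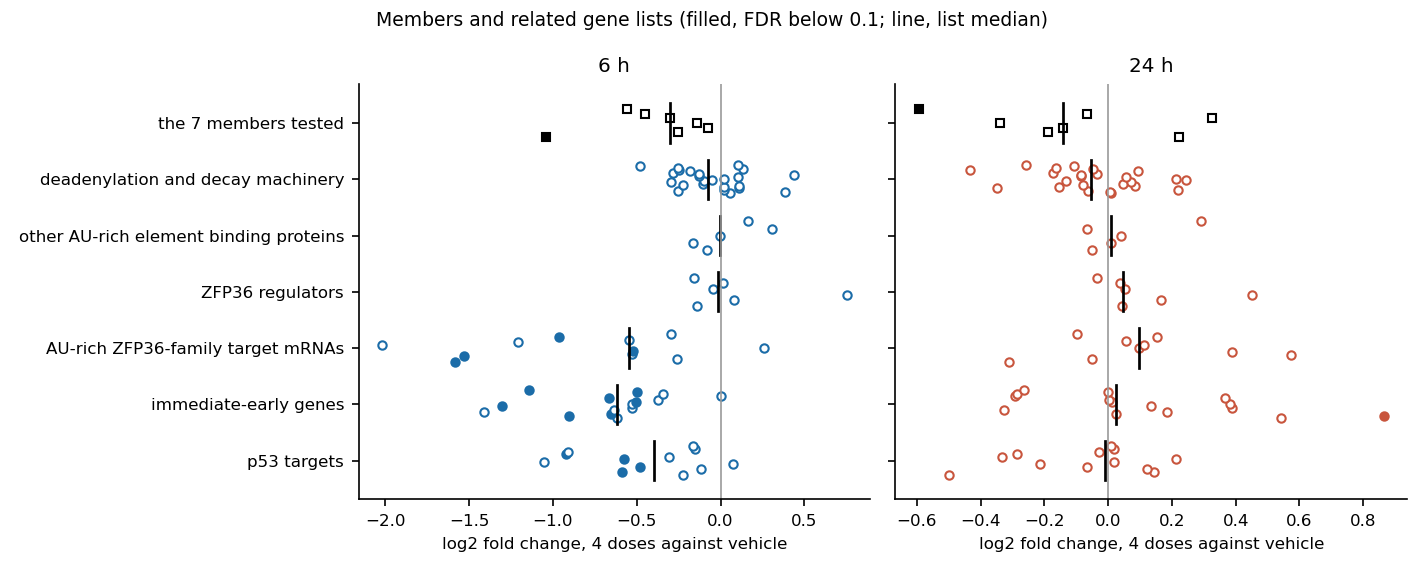
Log2 fold change of the 4 CBD doses together against vehicle (horizontal axis) for each gene of the members and of 6 related lists at 6 h (left) and 24 h (right, on its own scale), with filled points for an FDR below 0.1 and a line at each median. At 6 h the medians of target mRNAs, early-response genes and p53 targets lie at −0.55, −0.62 and −0.39 and that of the decay machinery at −0.08, and at 24 h these medians lie between −0.05 and 0.10.

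On GRCm38 (GENCODE M21) the members lie on 8 chromosomes. Zfp36 is at chr7:28376784-28380253 (ENSMUSG00000044786) and Tob2 at chr15:81848272-81858796 (ENSMUSG00000048546), both on the minus strand. Zfp36, Zfp36l2 and Tob2 overlap antisense genes, Gm44710, AC132455.1 and Gm49476, which had 5, 55 and 0 reads over the 30 libraries, against 784, 1532 and 5321 reads for the members. Zfp36l1 is overlapped on the opposite strand over 4967 bases by Gm26669, whose gene ID is not among the genes counted, and Btg3 over 27138 bases by Cxadr, which had 513 reads against 93 for Btg3. Whether the counting used the strand is not given in the sources used here, so reads in these overlaps cannot be told apart.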

How the data were processed

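RNA of 30 cell samples was sequenced with the QuantSeq 3′ mRNA-Seq FWD kit. The authors trimmed the reads, mapped them to GRCm39 with STAR (2.7.5c), and counted them per Ensembl gene with HTSeq (1.99.2), as their processing notes and methods state, and deposited raw counts per gene and library, without normalization. Here the counts, 1839621 to 4420675 on genes per library, were used as deposited, and HTSeq's summary lines were left out of library sizes. Of reads on genes, outside genes and ambiguous together, 17.7% to 22.2% were outside genes and 4.74% to 5.08% ambiguous. The lines left out also held 619734 to 1239550 alignments per library that were not unique. Counting error was largest for Zfp36 and Btg3. Symbols came from GENCODE M21, which matched 51948 of 56941 genes, and positions are those of GRCm38, with no conversion to the authors' build.

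Groups were taken from the treatment labels. For each time, edgeR (4.0.16, R 4.3.3) fitted 15 libraries with 5 group means (filterByExpr, TMM, glmQLFit and glmQLFTest, Benjamini-Hochberg over all genes tested, two-sided). A fit of all 30 libraries gave the comparison of the effects at the 2 times, of vehicle between the times and of both times together. The SE is the log2 fold change divided by the root of F. Log2 CPM for correlations used a prior count of 2. The script was tested on simulated data.

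The 8 members, the gene lists, the motifs of the promoters and the contrast of 3 µM with the lower doses were chosen with earlier results of these data known. All members are named, and from each list at most the 3 called genes with the smallest p at each time, plus the 3 genes most correlated with each called member. Alternatives were DESeq2 (1.42.0), scaling by RLE, testing every gene with a read, a floor of 10 counts in all libraries, a covariate for the percentage of reads outside genes, all 30 libraries in 1 fit, the 6 libraries of a comparison alone, and each library left out. Leaving out each vehicle library for the gene lists, and the comparison that pools both times, were chosen after seeing the data. Sequences were from RefSeq and GENCODE.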

Additional observations from a re-analysis of the deposited data

Results flagged for a closer look

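Zfp36l2 at 24 h stood out because its level at 3 µM CBD differed from that at the 3 lower doses, with a log2 difference of 0.85 (edgeR, FDR 0.0369). The 3 µM libraries had 14.7, 21.9 and 25.5 CPM, the 9 libraries of the lower doses 5.91 to 15.9 CPM and the vehicle libraries 14.3 to 15.5 CPM. The share of reads outside genes was also higher at 3 µM, and its part in the difference was not tested beyond the fit with that share as a covariate.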

How the results depend on the processing

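Counts of called members, given first as reported, changed as follows. For the 4 doses at 6 h, 1 became 2 with DESeq2, without a filter, with the covariate and with all 30 libraries, Tob2 being added each time, and was 0 to 2 when a library was left out. Calls over all genes also rose, from 90 of 12012 to 132 of 12012, 263 of 25247, 329 of 12012 and 163 of 12790 in that order. At 24 h, 1 became 0 with the covariate and with all 30 libraries, and was 0 to 1 on leaving out a library. Calls over all genes fell from 13 of 12118 to 0 of 12118 and 7 of 12790 in these fits. At any single dose at 6 h, 0 became 1 without a filter and 2 with the covariate or all 30 libraries (0 to 1 on leaving out a library), and at 24 h 0 became 1 with DESeq2, without a filter and with the 6 libraries alone (0 to 2). As reported, a single dose called 6 to 24 of all 12012 genes at 6 h and 1 to 10 of 12118 at 24 h. Under the other settings these were not counted. For differences among the doses at 24 h, 0 became 1 with DESeq2 and without a filter (0 to 1), while calls over all genes rose from 234 of 12118 to 526 of 12118 and 783 of 25432. For 3 µM against lower doses, 1 became 0 with the covariate (0 to 3), while calls over all 12118 genes fell from 1275 to 30. For the difference between the times, 0 became 1 with at least 10 counts, and for both times together 1 became 2 with the covariate, Zfp36l1 being added. Calls over all genes went from 30 of 12790 to 27 of 8626 in the first and from 53 to 240 of 12790 in the second. The 3 calls in vehicle were 2 to 3 under every setting. There 3411 of all genes were called as reported and 2829 to 3499 in the alternatives that kept every library. The causes were not tested.

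With the covariate, the log2 fold change turned to −0.094 for Btg2 at 24 h, −0.30 for Zfp36 at 3 µM against lower doses, −0.11 for Zfp36l1 between the times and −0.082 for Btg2 at both times together. On leaving out a library, values crossed 0 for Zfp36l2 at 6 h (−0.34 to 0.082), Zfp36l1 and Tob1 at 24 h (−0.32 to 0.056 and −0.12 to 0.039), Zfp36, Btg2 and Tob1 at 3 µM against lower doses (−0.027 to 0.36, −0.052 to 0.62 and −0.079 to 0.33), Zfp36l1, Zfp36l2 and Tob2 between the times (−0.17 to 0.32, −0.22 to 0.20 and −0.13 to 0.12), Zfp36l1 and Tob2 in vehicle (−0.47 to 0.011 and −0.25 to 0.0047) and Btg2 at both times together (−0.035 to 0.048). Zfp36 at 6 h was called in all 6 alternatives that kept every library.

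No paired analysis was possible because the labels give no replicate numbers. Precision was limited by 3 vehicle libraries per time and by 11 to 48 reads of Zfp36 per library.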
